A study of Homo sapiens with 6 samples.

Results

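The lysosomal enzyme and membrane genes described here are a fixed list of 37 genes, out of 63677 genes in the counts table. They were listed by name, and each symbol was matched to its Ensembl identifier. The 37 genes comprise 10 glycosidases, 4 sulfatases, 7 proteases and peptidases, 6 lipid-handling genes, 2 precursor proteins, 4 membrane proteins, 2 subunits of the proton pump and 2 transcription factors. All 37 genes had enough counts to be tested.

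RNA was sequenced from UWB1.289 cells, a human ovarian cancer cell line that the study describes as BRCA1-deficient and whose genotype field in the sample labels reads WT. Cells received Olaparib, an inhibitor of the poly(ADP-ribose) polymerase PARP1, or DMSO as the vehicle, and both groups were collected after 24 h (3 samples each, the study's independent replicates of a single line). The sample labels give 4 µM Olaparib and the series design text gives 10 µM. All dishes shared the same medium, a 1:1 mixture of RPMI and MEGM with 3% fetal bovine serum, and RNA was selected by its poly(A) tail. The comparison asks whether transcripts of the lysosomal genes differed after Olaparib. In such bulk RNA, a change in the amount of a transcript per cell and a change in the make-up of the culture cannot be told apart.

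Lysosomes are acidic organelles in which hydrolases break down glycans, lipids, proteins and nucleic acids delivered by endocytosis and autophagy. The vacuolar proton pump (V-ATPase) acidifies the lumen, and heavily glycosylated membrane proteins line the inner face of the membrane. Many of these genes carry a short promoter element, the CLEAR element, that is bound by the MiT-TFE transcription factors TFEB, TFE3, MITF and TFEC. When these factors enter the nucleus after starvation or lysosomal stress, transcripts of many lysosomal genes can rise together.

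Libraries held between 35360458 and 39640775 counts assigned to genes. The epithelial keratin and EPCAM transcripts expected of a carcinoma line were abundant. The epithelial marker list of 9 genes summed to 486236 to 511146 normalized counts with Olaparib and 479453 to 495989 with DMSO. Of these 9 genes, 8 had enough counts to be tested, and 6 lay above 0 and 2 below. At an unadjusted p under 0.05 in edgeR, 5 were higher and 0 lower, against 7.83% and 6.97% of all genes tested. The macrophage list of 8 genes, which matters because macrophages are rich in lysosomes, summed to 125 to 151 normalized counts with Olaparib and 107 to 129 with DMSO, and none of its genes passed the test. The fibroblast list (7 genes) summed to 2106 to 2371 against 2158 to 2242, and the endothelial list (5 genes) to 1661 to 1709 against 1692 to 1806. LUM and PECAM1 were at 0 counts in every sample. VWF, an endothelial gene at 63.8 to 69.7 normalized counts with Olaparib and 39.7 to 43.6 with DMSO, rose (adjusted p = 0.0106, quasi-likelihood F-test of edgeR adjusted after Benjamini and Hochberg), as did the epithelial factor PAX8 (log2 fold change 0.10, adjusted p = 0.0399 in the same edgeR test). Of the other endothelial genes, none passed the test in edgeR. KDR was at 93.1 to 104 normalized counts with Olaparib and 77.4 to 80.6 with DMSO, CDH5 was at 1494 to 1550 against 1567 to 1680, and TEK was near 0. The part of these markers in the lysosomal values was not tested.

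Lysosomal transcripts ranged from low to high levels and differed little between Olaparib and DMSO. 1 of the 37 genes, the sulfatase gene IDS, fell, and no gene rose, when the quasi-likelihood F-test of edgeR was adjusted after Benjamini and Hochberg over all 21729 genes tested and read at 0.05. Over all genes tested, 2.15% were called higher and 1.21% were called lower. Among the 11997 genes with a mean of at least 100 normalized counts, a level that all 37 lysosomal genes reached, 3.67% were higher and 1.89% were lower, so the share of lysosomal genes called was near the background. None of the 37 genes passed the 1.2-fold limit (0.263 on the log2 scale) together with the adjusted p, against 1.21% of all genes tested. The test with DESeq2 and the test with limma voom also called 0 higher and 1 lower. At an unadjusted p under 0.05 in edgeR, 4 genes were higher (NEU1, FUCA1, CTSB and CTSD) and 4 were lower (IDS, CTSZ, CD63 and TFE3). At that threshold 7.83% of all genes tested were higher and 6.97% lower, and 11.9% and 9.12% of those with at least 100 normalized counts, so these counts too were near the background.

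The log2 fold changes of the 37 genes, Olaparib against DMSO, ran from −0.14 for IDS to 0.11 for CTSD. Their median was 0.020, beside −0.0042 over all genes tested and 0.0025 among genes of at least 100 normalized counts. Of the 37 genes, 24 lay above 0 and 13 below, against 6167 and 5830 of the 11997 genes at that level. The median of the 37 genes was 0.0041 without DMSO replicate 1. The median absolute log2 fold change was 0.038 for the lysosomal genes, 0.096 over all genes tested and 0.052 among genes of at least 100 normalized counts. The 95% intervals of 36 of the 37 genes lay wholly within a 1.2-fold change in either direction. The exception was SMPD1, the least counted gene of the list, whose interval reached −0.35. Intervals also lay within a 1.2-fold change for 10137 of the 11997 genes of at least 100 normalized counts and 10141 of all 21729 genes tested.

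**Figure D1:**
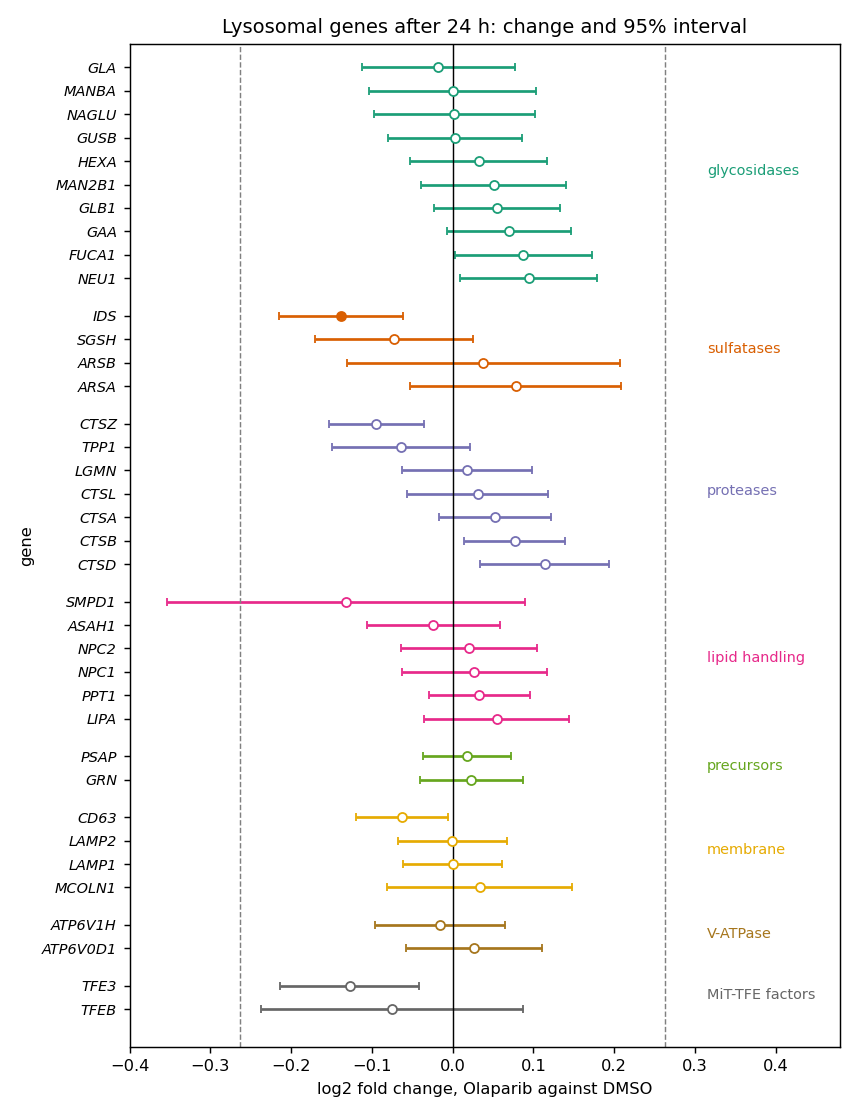
Log2 fold change of each of the 37 lysosomal genes, Olaparib against DMSO (x axis), with its 95% interval from edgeR, grouped by role (colors). The filled point (IDS) is the gene with an adjusted p under 0.05, and the dashed lines mark a 1.2-fold change, which only the interval of SMPD1 crosses.

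The 3 Olaparib samples did not overlap the 3 DMSO samples for 11 of the 37 genes (29.7%). This compares with 19.3% of all genes tested and 24.7% of genes with at least 100 normalized counts. For GAA, NEU1, FUCA1, CTSA, CTSB and CTSD, every Olaparib sample lay above every DMSO sample. For IDS, CTSZ, TPP1, CD63 and TFE3, every Olaparib sample lay below every DMSO sample. The samples overlapped for the other 26 genes.

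The promoters of 5 of the genes carried the 8 letters TCACGTGA, the core of the CLEAR element. The 8 letters read the same on both strands, and they contain the shorter E-box CACGTG. RefSeq promoter windows on GRCh38.p14, from 250 bases before to 50 bases after a transcription start, were at hand for 26 of the 37 genes (39 windows). TCACGTGA was present in 12.8% of these windows and in 0.980% of all 35116 windows. CACGTG was present in windows of 9 of the genes (ARSB, ATP6V0D1, CD63, CTSA, CTSD, GAA, LAMP1, MCOLN1 and NEU1), that is in 23.1% of their windows against 7.26% of all windows. The letters are a description of the sequence and are no evidence that a factor was bound here.

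The stretches around the element are shown because they hold the letters that these 5 promoters have in common. They are read 5′ to 3′ on the strand of the gene, with every TCACGTGA in capitals. ATP6V0D1 lies at chr16:67481170-67481257 on the minus strand, and its element starts 60 bases before the RefSeq start. The plus-strand stretches are chr20:45891298-45891327 for CTSA (26 bases before the start), chr17:80101493-80101522 for GAA (77 bases), chr13:113297170-113297238 for LAMP1 (29 bases) and chr19:7522542-7522623 for MCOLN1 (42 bases, with a second copy 15 bases before the start). CTSA and GAA are limited to 11 bases on each side of the element because longer stretches shared more than 30 bases with annotated exons. All 30 bases of the CTSA stretch shown still lie in annotated exons. The windows of GAA and LAMP1 hold a second copy outside the stretch shown.
ATP6V0D1: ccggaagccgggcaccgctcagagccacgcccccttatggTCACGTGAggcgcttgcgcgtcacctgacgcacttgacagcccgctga
CTSA: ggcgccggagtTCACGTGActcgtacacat
GAA: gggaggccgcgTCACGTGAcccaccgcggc
LAMP1: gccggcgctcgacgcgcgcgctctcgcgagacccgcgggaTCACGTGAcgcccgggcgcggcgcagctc
MCOLN1: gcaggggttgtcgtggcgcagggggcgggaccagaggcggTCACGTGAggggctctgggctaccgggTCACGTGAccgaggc

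None of these 5 genes passed the test in edgeR. Their log2 fold changes ran from −0.00013 (LAMP1) to 0.070 (GAA), with a median of 0.033. The 21 lysosomal genes with a window but without the element had a median of 0.023. Among all 262 tested genes with the element, the median was 0.0071, and 2.67% were called higher and 2.29% lower. Among the 12967 tested genes whose windows lacked the element, the median was 0.0032, and 2.60% were called higher and 1.33% lower.

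Levels per length spanned a 581-fold range. They are given as TPM, computed from the counts and the summed length of all annotated exons of a gene. That length includes rare long transcripts, so genes with many retained introns in the annotation, such as CTSZ, HEXA and ASAH1, have TPM values on the low side. PSAP had the highest level, at 1382 ± 15.8 TPM in DMSO (SD, n = 3), above 99.7% of the genes tested. CD63 followed at 550 ± 5.16 TPM, GRN at 224 ± 6.04 TPM, PPT1 at 191 ± 1.71 TPM and LAMP1 at 125 ± 0.830 TPM. The lowest levels were those of SMPD1 (5.28 ± 0.304 TPM), TFEB (4.13 ± 0.297 TPM) and ARSB (2.38 ± 0.133 TPM). They lay above 49.7%, 46.8% and 39.8% of the genes tested. In this order, 11 of the 36 pairs of neighbouring genes overlapped between their DMSO samples and could not be ranked, among them CTSZ, CTSD, GLB1 and CTSB at 65.7 to 67.7 TPM.

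**Figure D2:**
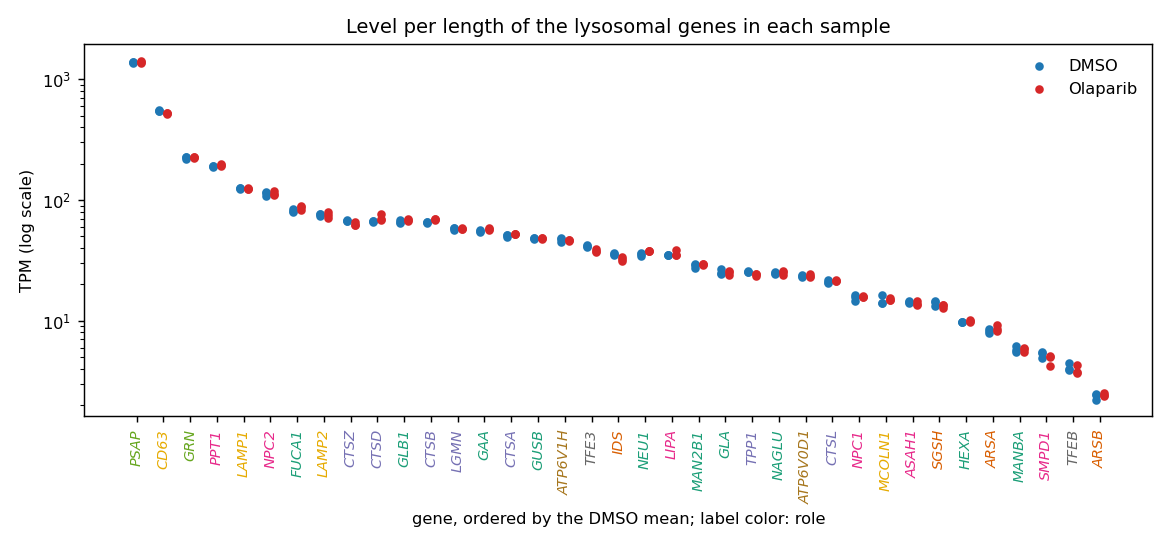
Level per length of the 37 lysosomal genes in every sample, in TPM on a log scale (y axis), ordered by the DMSO mean. The DMSO (blue) and Olaparib (red) points of a gene nearly coincide on this scale, from PSAP at 1382 TPM to ARSB at 2.38 TPM in DMSO.

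The 10 glycosidases, which cleave sugars from glycans and glycolipids, were all measured and none passed the test in edgeR. 9 of the 10 had log2 fold changes above 0, with a median of 0.042. Above 0 were also 10564 of all 21729 genes tested and 6167 of the 11997 genes with at least 100 normalized counts. GUSB, NAGLU and MANBA lay near 0 and fell below 0 with upper-quartile factors, and GUSB and NAGLU also without DMSO replicate 1. NEU1, the lysosomal sialidase, had 1876, 1867 and 1891 normalized counts with Olaparib and 1680, 1787 and 1810 with DMSO. All Olaparib samples lay above the DMSO samples, of which replicate 1 was the lowest. The log2 fold change of NEU1 was 0.094 (95% interval 0.0091 to 0.18, adjusted p = 0.264 in edgeR). FUCA1, which removes fucose, had 1858, 1837 and 1755 normalized counts with Olaparib and 1745, 1671 and 1713 with DMSO. Here the groups were separated by only the gap between Olaparib replicate 3 and DMSO replicate 1, and the log2 fold change was 0.088 (0.0025 to 0.17, adjusted p = 0.314 in edgeR). GAA, the acid glucosidase that degrades glycogen, had 3078, 3207 and 3092 normalized counts with Olaparib and 2920, 3032 and 2979 with DMSO. Its groups did not overlap either, with a log2 fold change of 0.070 (−0.0064 to 0.15, adjusted p = 0.395 in edgeR).

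The other 7 glycosidases overlapped between the groups. GLB1, the beta-galactosidase, had 3048 ± 42.3 normalized counts with Olaparib and 2934 ± 96.3 with DMSO (SD, n = 3, as for the values that follow), a log2 fold change of 0.055 (95% interval −0.023 to 0.13). MAN2B1, the alpha-mannosidase, had 1636 ± 23.4 against 1578 ± 84.9, a log2 fold change of 0.051 (−0.039 to 0.14). HEXA, which encodes the alpha subunit of beta-hexosaminidase, had 1578, 1651 and 1642 against 1569, 1585 and 1610, a log2 fold change of 0.032 (−0.053 to 0.12). These values differed by about the spread between replicates, and the log2 fold changes of GLB1 and MAN2B1 were 0.032 and 0.012 without DMSO replicate 1. The remaining glycosidases were closer to 0. For GUSB, the beta-glucuronidase, the log2 fold change was 0.0031 (−0.080 to 0.086). Reads of GUSB may be shared with its pseudogene copies, of which GUSBP1 had 984 counts in total. NAGLU, which acts on heparan sulfate, had a log2 fold change of 0.0020 (−0.098 to 0.10). For MANBA, the beta-mannosidase, the means were 697 normalized counts in both groups, and the log2 fold change was 0.00023 (−0.10 to 0.10). GLA, the alpha-galactosidase, had 1597 ± 62.9 against 1616 ± 104 and was the only glycosidase below 0, at −0.018 (−0.11 to 0.077).

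Among the 4 sulfatases, IDS fell and 3 did not pass the test in edgeR. IDS (ENSG00000010404, chrX:149476988-149521096, minus strand, GRCh38) encodes iduronate-2-sulfatase, which removes sulfate from heparan and dermatan sulfate. It had 3206, 2985 and 3109 normalized counts with Olaparib and 3367, 3380 and 3490 with DMSO. All Olaparib samples lay below all DMSO samples, and Olaparib replicate 2 was the lowest. The log2 fold change was −0.14 ± 0.038 (SE), a change of −9.15%, with an adjusted p of 0.0333 in edgeR (Benjamini-Hochberg). The adjusted p in edgeR was 0.168 without Olaparib replicate 2, 0.0828 without Olaparib replicate 3, 0.0981 without DMSO replicate 2 and 0.172 without DMSO replicate 3. Of the exon bases of IDS, 75.9% overlap other annotated genes on the same strand, and those genes had only 41 and 5 counts in total, so how reads were divided there is uncertain.

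The other sulfatases moved in either direction. SGSH, which acts on heparan sulfate, had 910 ± 32.3 normalized counts with Olaparib and 957 ± 43.2 with DMSO, a log2 fold change of −0.073 (−0.17 to 0.026). ARSA, which degrades sulfatide, had 401 ± 25.9 against 380 ± 8.74, a log2 fold change of 0.078 (−0.052 to 0.21). ARSB, which acts on dermatan and chondroitin sulfate, had 223 ± 6.58 against 217 ± 10.2, a log2 fold change of 0.038 (−0.13 to 0.21). ARSA and ARSB were among the least counted genes of the list, and their intervals were wide. Without Olaparib replicate 2 the log2 fold change of ARSA was 0.028, and that of SGSH was −0.038 without DMSO replicate 2.

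None of the 7 proteases and peptidases passed the test in edgeR. The groups did not overlap for 5 of them, with Olaparib above DMSO for 3 and below for 2. The groups also did not overlap for 19.3% of all genes tested and 24.7% of genes with at least 100 normalized counts. CTSZ, a carboxypeptidase, had 12298, 13095 and 12406 normalized counts with Olaparib and 13195, 13577 and 13581 with DMSO. Olaparib replicate 2 lay close to the lowest DMSO sample and the other Olaparib samples lay well below. The log2 fold change was −0.094 (95% interval −0.15 to −0.035), and the adjusted p in edgeR was 0.0668 with all samples and 0.0198 without Olaparib replicate 2. It was 0.0349 with upper-quartile factors, 0.0359 without a filter on low counts and 0.0486 with the filter filterByExpr. With other samples left out, the adjusted p in edgeR was 0.146 (Olaparib replicate 1) and 0.255 (Olaparib replicate 3). It was 0.0872, 0.237 and 0.204 when DMSO replicates 1, 2 and 3 were left out in turn. Exons of CTSZ share 31.7% of their bases with NELFCD on the opposite strand, a gene of 8455 to 8999 normalized counts. The paper names a stranded library kit, but the strand setting used for counting is not given in the sources used here. TPP1, which removes tripeptides from the ends of proteins, had 1622, 1588 and 1648 normalized counts with Olaparib and 1652, 1679 and 1745 with DMSO. Its groups were separated by a small gap, and the log2 fold change was −0.063 (−0.15 to 0.022, adjusted p = 0.527 in edgeR), or −0.042 without DMSO replicate 3.

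The cathepsins D, B and A lay on the other side of 0. CTSD, the aspartic protease cathepsin D, had 4094, 4539 and 4033 normalized counts with Olaparib and 3840, 3868 and 3995 with DMSO. Olaparib replicate 2 stood highest, and the lowest Olaparib sample was close to the highest DMSO sample. The log2 fold change of 0.11 was the largest above 0 in the list (0.034 to 0.19, adjusted p = 0.114 in edgeR). Without Olaparib replicate 2 it was 0.059, below those of NEU1, LIPA and FUCA1. CTSB, a cysteine protease, had 7311, 7591 and 7546 normalized counts with Olaparib and 6900, 7142 and 7240 with DMSO. Its groups did not overlap, and its log2 fold change was 0.077 (0.014 to 0.14, adjusted p = 0.195 in edgeR). CTSA, the carboxypeptidase that also protects NEU1 and beta-galactosidase in a complex, had 4675, 4662 and 4649 normalized counts with Olaparib and 4333, 4589 and 4564 with DMSO. DMSO replicate 1 stood apart below the others, and the log2 fold change was 0.052 (−0.017 to 0.12, adjusted p = 0.513 in edgeR), or 0.029 without that sample. Of the exon bases, 48.0% in CTSD and 21.5% in CTSA overlap those of other genes. The genes overlapping CTSD had only 23, 10 and 0 counts in total. Those overlapping CTSA include PLTP on the opposite strand, with 36184 counts in total, against 27479 for CTSA. The log2 fold change of PLTP was 0.073 (adjusted p = 0.302 in edgeR), and its part in the CTSA counts was not tested. The cysteine protease CTSL had 1356 ± 15.9 normalized counts with Olaparib and 1327 ± 19.7 with DMSO, with a log2 fold change of 0.031 (−0.057 to 0.12). For LGMN, the asparaginyl endopeptidase legumain, the values were 2325 ± 35.3 against 2297 ± 55.5, with a log2 fold change of 0.017 (−0.063 to 0.098).

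The 6 lipid-handling genes overlapped between the groups and none passed the test in edgeR. SMPD1, the acid sphingomyelinase, had 141, 146 and 120 normalized counts with Olaparib and 148, 139 and 157 with DMSO. Olaparib replicate 3 was the lowest sample, and the log2 fold change of −0.13 had a wide interval (−0.35 to 0.089) and was −0.054 without that sample. For ASAH1, the acid ceramidase, the log2 fold change was −0.024 (−0.11 to 0.058). LIPA, the lysosomal acid lipase, had 1764, 1752 and 1951 normalized counts with Olaparib and 1730, 1760 and 1774 with DMSO. Olaparib replicate 3 stood above the other 5 samples, which lay within a narrow range, and the log2 fold change was 0.055 (−0.035 to 0.14, adjusted p = 0.625 in edgeR). It was 0.00077 without Olaparib replicate 3. LIPA shares 6.01% of its exon bases with other genes, among them IFIT3 on the opposite strand. IFIT3, an interferon-induced gene, rose, with a log2 fold change of 0.53 (adjusted p = 7.5e-05 in edgeR), and its part in the LIPA counts was not tested.

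The remaining lipid genes act on cholesterol and on lipidated proteins. PPT1, which removes palmitate from proteins, had 6748 ± 99.4 normalized counts with Olaparib and 6594 ± 138 with DMSO, a log2 fold change of 0.033 (−0.029 to 0.096). The cholesterol exporters NPC1 and NPC2 act in series, NPC2 in the lumen and NPC1 in the membrane. NPC1 had 1581 ± 24.4 against 1552 ± 83.2, a log2 fold change of 0.027 (−0.063 to 0.12). NPC2 had 3037 ± 139 against 2994 ± 136, a log2 fold change of 0.020 (−0.064 to 0.10).

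The precursor gene PSAP and the membrane gene CD63 had the highest levels of the list, both per length and in normalized counts. PSAP, which encodes the precursor of the saposins that help enzymes reach their lipid substrates, had 44272, 45622 and 44203 normalized counts with Olaparib and 42892, 44673 and 44880 with DMSO. The samples of both groups were interleaved, and the log2 fold change was 0.018 (95% interval −0.037 to 0.072). PSAP alone made up 27.3% to 28.0% of the counts of the 37 genes in each library. GRN, which encodes progranulin, had 8218 ± 55.3 against 8085 ± 335, a log2 fold change of 0.023 (−0.040 to 0.087).

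LAMP1 and LAMP2, the glycoproteins that coat the inner face of the lysosomal membrane, had log2 fold changes closest to 0 apart from MANBA. LAMP1 had 7279, 7514 and 7254 normalized counts with Olaparib and 7230, 7421 and 7396 with DMSO. LAMP2 had 8633, 7781 and 8275 with Olaparib and 8262, 8046 and 8388 with DMSO. Their samples were interleaved, although Olaparib held both the highest and the lowest LAMP2 sample. The log2 fold change was −0.00013 (−0.061 to 0.061) for LAMP1 and −0.00037 (−0.067 to 0.067) for LAMP2. CD63, a tetraspanin of late endosomes and exosomes, had 12790, 13231 and 13218 normalized counts with Olaparib and 13308, 13814 and 13861 with DMSO. The Olaparib samples lay below the DMSO samples by a narrow gap, with a log2 fold change of −0.063 (−0.12 to −0.0056, adjusted p = 0.269 in edgeR). MCOLN1, the calcium channel TRPML1 of the lysosomal membrane, had 616 ± 16.7 against 602 ± 52.5, a log2 fold change of 0.033 (−0.081 to 0.15).

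Both listed subunits of the V-ATPase overlapped between groups. ATP6V1H, of the cytosolic part of the pump, had 2434 ± 32.6 normalized counts with Olaparib and 2460 ± 74.8 with DMSO, a log2 fold change of −0.015 (−0.096 to 0.065). ATP6V0D1, of the part in the membrane, had 1990 ± 65.3 against 1954 ± 53.1, a log2 fold change of 0.026 (−0.058 to 0.11).

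The transcription factor genes TFEB and TFE3 both lay below 0 and did not pass the test in edgeR. TFE3 (ENSG00000068323, chrX:49028726-49043410, minus strand) had 1638, 1690 and 1601 normalized counts with Olaparib and 1782, 1757 and 1846 with DMSO. All Olaparib samples lay below all DMSO samples. The log2 fold change was −0.13 ± 0.042 (SE), with an adjusted p of 0.0956 in edgeR that missed the threshold. TFEB (ENSG00000112561, chr6:41683978-41736259, minus strand) had 258, 295 and 258 normalized counts with Olaparib and 266, 277 and 312 with DMSO. Its groups overlapped, since Olaparib replicate 2 exceeded DMSO replicates 1 and 2, and the log2 fold change was −0.076 ± 0.080 (SE, adjusted p = 0.736 in edgeR). It was −0.0051 without DMSO replicate 3 and −0.14 without Olaparib replicate 2. Per length, TFE3 was the more abundant factor in DMSO, at 41.6 ± 0.869 TPM against 4.13 ± 0.297 TPM for TFEB. These values are of transcripts and carry no information on where the proteins were in the cell.

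**Figure D3:**
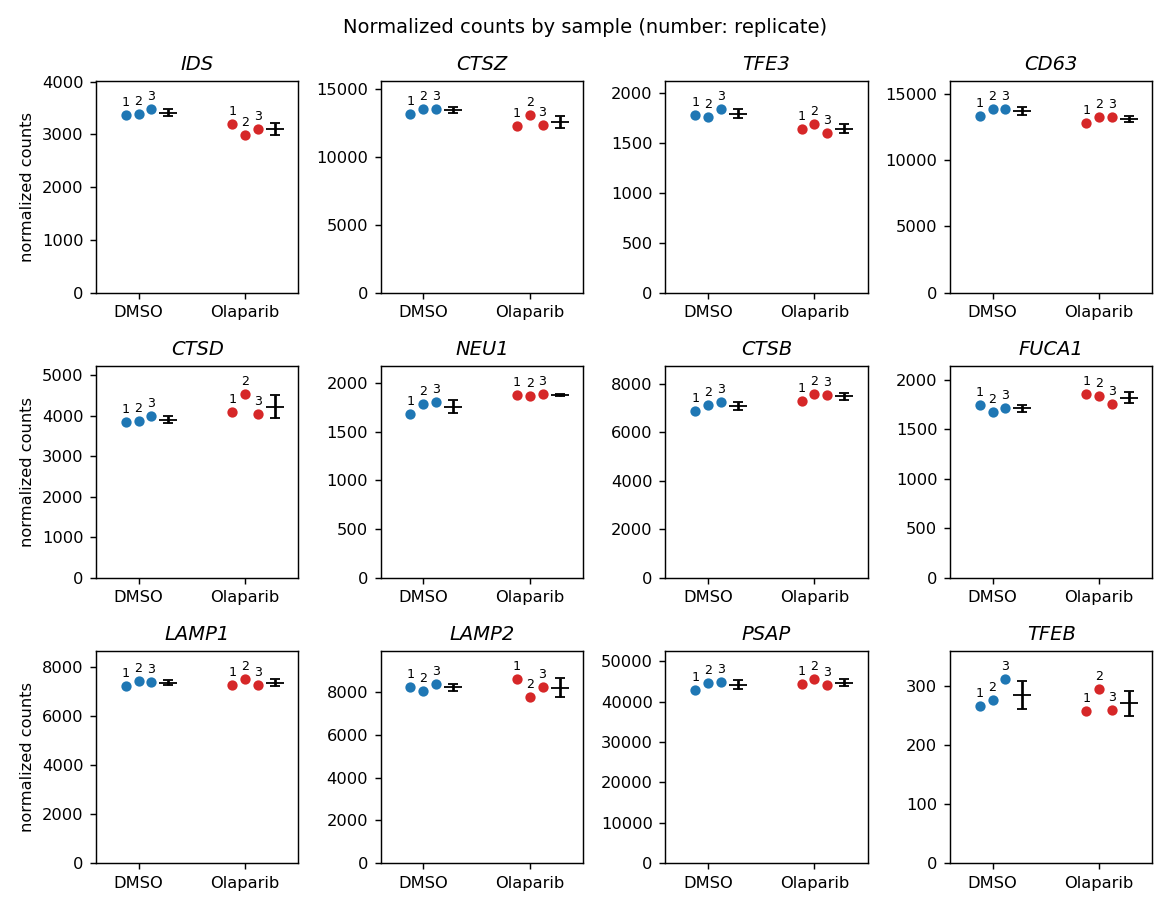
Normalized counts of 12 lysosomal genes in each sample (y axis from 0, digits mark the replicate), with mean ± SD as bars. The top row shows genes with Olaparib below DMSO in every sample, the middle row genes with Olaparib above DMSO in every sample, and the bottom row genes whose samples overlapped, such as TFEB.

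Summed over the 37 genes, the Olaparib samples held 160059, 162650 and 160535 normalized counts and the DMSO samples 156965, 161650 and 163288. The lowest and the highest sums were both DMSO samples. The means were 161081 ± 1379 with Olaparib and 160634 ± 3281 with DMSO (SD, n = 3), so the groups differed by less than the spread between DMSO replicates. The share of these genes in a library was 0.425% to 0.435% throughout. DMSO replicate 1 was the lowest sample for 17 of the 37 genes, and DMSO replicate 3 was the highest for 12.

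Further genes of the pathway were read from lists of 164 genes that do not include the 37. Of these, 2 rose and 2 fell in edgeR at an adjusted p under 0.05, and at an unadjusted p under 0.05 there were 10 higher and 14 lower, near the shares of all genes given above. Their median log2 fold change was 0.015. Of 37 other hydrolases, 1 rose and 0 fell, with a median of 0.032. Of 27 other membrane genes, 0 rose and 1 fell. Of 22 genes for MiT-TFE factors and their regulators, 1 rose and 1 fell. In edgeR, no gene passed among 22 other V-ATPase genes (0 higher and 0 lower at an unadjusted p under 0.05), 18 genes for sorting of enzymes (2 and 1) and 38 autophagy genes (1 and 1). DESeq2 and limma voom also called none in the V-ATPase and sorting lists. The cargo receptor SQSTM1, an autophagy gene named after its values were seen, was not called in the main edgeR fit. DESeq2 called it lower, as did edgeR with upper-quartile factors, without the filter on low counts, with filterByExpr and with the replicate block. In limma voom, with RLE size factors and with any sample left out, no autophagy gene was called lower. STX17, an autophagy gene also named after its values were seen, was called higher in edgeR only without Olaparib replicate 2.

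CTSV, which encodes cathepsin V, a close relative of CTSL, had 1476, 1482 and 1472 normalized counts with Olaparib and 1300, 1255 and 1333 with DMSO. The Olaparib samples lay close together above all DMSO samples, and the log2 fold change was 0.19 ± 0.043 (SE, adjusted p = 0.00833 in edgeR). The call on CTSV was lost without Olaparib replicate 3 and without DMSO replicate 2. OSTM1, a partner of a lysosomal chloride transporter, had 773, 755 and 795 with Olaparib and 905, 836 and 881 with DMSO. It fell, with a log2 fold change of −0.17 (adjusted p = 0.0372 in edgeR), a call that was lost with DESeq2, with limma voom and when any of 5 of the 6 samples was left out.

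MITF, the family member best known from pigment cells, had 228, 249 and 202 normalized counts with Olaparib and 271, 289 and 308 with DMSO. It fell, with a log2 fold change of −0.36 (SE 0.083, adjusted p = 0.00912 in edgeR), and was the only gene of these lists called past 1.2-fold. The MITF call was lost without Olaparib replicate 3 and without DMSO replicate 3. TFEC was at or near the floor of 3 counts, with 13 counts over all samples. FNIP1, a partner of folliculin in the control of these factors, had 705, 661 and 748 with Olaparib and 651, 619 and 592 with DMSO. It rose, with a log2 fold change of 0.18 and an adjusted p of 0.0475 in edgeR, and was not called by DESeq2 or limma voom. The FNIP1 call was also lost in edgeR with RLE size factors, with upper-quartile factors, with filterByExpr and when any of 5 of the 6 samples was left out.

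**Figure D4:**
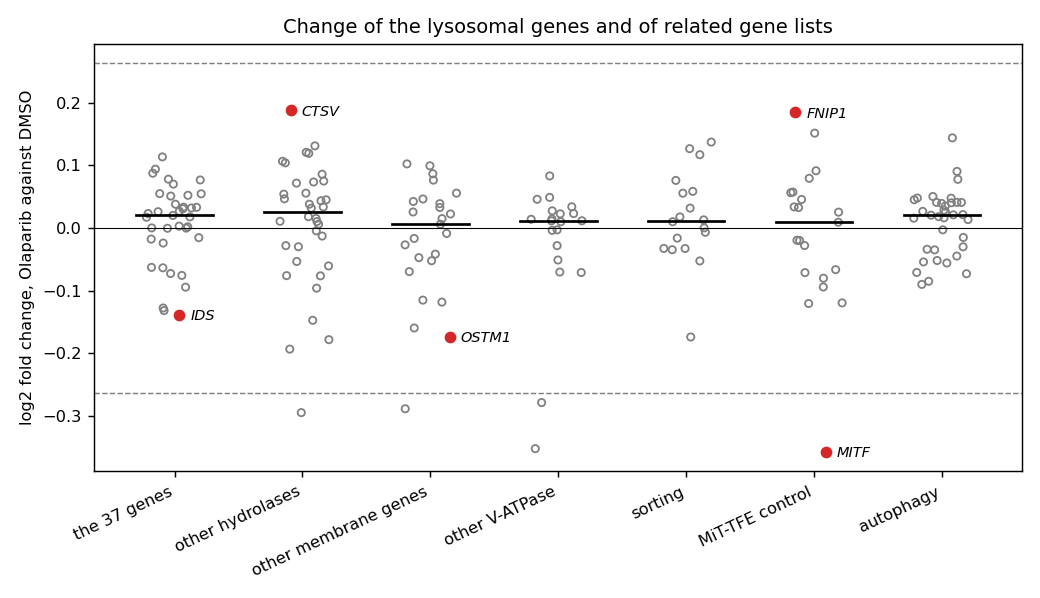
Log2 fold change of the 37 lysosomal genes and of the other gene lists (genes with a mean of at least 20 normalized counts), with the median of each list as a bar and a 1.2-fold change as dashed lines. Red points are genes with an adjusted p under 0.05, namely IDS, CTSV, OSTM1, FNIP1 and MITF, and the medians of all lists lie near 0.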

How the data were processed

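The authors deposited whole-number read counts per gene for 3 Olaparib and 3 DMSO samples. According to the paper and the submitters' processing notes, adapters were trimmed with Trimmomatic, reads were mapped to GRCh38 (hg38) with STAR, duplicates were identified with Picard, and genes were counted with featureCounts. According to the paper, libraries were made with a stranded kit. The sources used here do not state the strand setting of featureCounts or whether duplicates were removed. Samples were grouped by their labels. Genes with more than 10 counts in total were kept (21729), scaled by TMM and tested with edgeR 4.0.16 in R 4.3.3, without a block, after a test on simulated data. Normalized counts are counts divided by TMM-scaled library sizes. Alternatives used DESeq2 1.42.0, limma 3.58.1, other scalings and filters, a replicate block, other thresholds and leaving out each sample. Symbols and exons came from GENCODE release 44, which held 81.9% of identifiers. Over 15525 genes, chi-square per degree of freedom between replicates was 1.81 to 4.11, so all samples were counted separately. Intervals are 95% intervals of the edgeR fit. The members and lists were chosen with earlier results of these data known. All 37 genes are named. MITF, TFEC and, of each other list, up to 3 called genes per direction with a mean of at least 20 normalized counts are named.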

Additional observations from a re-analysis of the deposited data

How the results depend on the processing

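Olaparib and DMSO samples share replicate numbers, which were left out of the main fit because the paper describes no such block. The deviations of same-numbered samples correlated at −0.0791, 0.105 and −0.104. With the replicate block, 2 lysosomal genes were higher (CTSB, CTSD) and 3 lower (IDS, CTSZ, TFE3), and 4 and 5 of the other genes. The share of all genes called with the block or in the other alternatives is not given here. Counts from these alternatives therefore have no background to be read against. No lysosomal gene passed 1.2-fold in any alternative. Lysosomal genes called lower numbered 2 with upper-quartile factors, without the filter and with filterByExpr, 0 at an adjusted p under 0.01, 3 under 0.1, and 0 to 1 when a sample was left out. Without Olaparib replicate 2 the gene was CTSZ in place of IDS. Of the 164 other genes, 1 was higher with DESeq2, limma voom, RLE size factors, upper-quartile factors and filterByExpr, and 1 was lower with limma voom. With a sample left out, 0 to 3 were higher and 0 to 3 lower. The direction changed for 12 lysosomal genes of at most 0.038 (absolute log2 fold change). LAMP1 and LAMP2 became 0.00012 and 1.8e-05 with DESeq2, 0.00017 and 1.6e-05 with RLE size factors and 0.00088 and 0.00059 without the filter. With upper-quartile factors GUSB was −0.0059, MANBA −0.0089 and NAGLU −0.0071. MANBA was −0.0021 and NAGLU −0.00028 with filterByExpr, and MANBA −0.00056 with the replicate block. Leaving out a sample gave −0.049 to 0.035 for GLA, −0.017 to 0.018 for GUSB, −0.024 to 0.034 for MANBA, −0.020 to 0.026 for NAGLU, −0.0016 to 0.068 for ARSB and −0.0074 to 0.071 for NPC1. It gave −0.020 to 0.041 for NPC2, −0.00066 to 0.028 for PSAP, −0.0072 to 0.047 for GRN, −0.016 to 0.0086 for LAMP1, −0.034 to 0.039 for LAMP2 and −0.0059 to 0.11 for MCOLN1. The cause of these changes was not tested. With 3 samples a group, depth limits chiefly SMPD1, ARSB, TFEB and ARSA.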
